A study of Bos taurus with 18 samples.

Results

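Clones B, E and F are 3 of the 17 clonal populations of bovine mesenchymal stem cells (MSCs) whose RNA was sequenced, and the libraries of these 3 lay close to each other. MSCs are stromal cells of the bone marrow that adhere to culture plastic, and each clone here was grown from 1 cell of the same donor, a juvenile animal 3 to 6 months of age. All clones were grown as a monolayer in DMEM with serum and antibiotics and sampled at passage 1, without inducing differentiation, and each gave 1 library of poly(A) RNA. The comparison was with the 14 other clones, A, C, D and G to Q, and the 18th library, a heterogeneous population of many founder cells from the same donor, was kept out of both groups. No clone was sequenced more than once, so that every spread given here is a spread between clones, and clones of 1 donor do not stand for other animals. Because the 3 clones were picked by the likeness of their expression, the gene differences below are descriptions and carry no p-value.

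MSCs can become cartilage, bone or fat cells, and clones of 1 marrow sample differ in how readily they do so. In monolayer they mostly make a fibrous matrix of type I and type III collagen, they divide at rates that differ from clone to clone, and on stiff plastic they may assemble the contractile fibres of smooth muscle. Aggrecan (ACAN) and type II collagen (COL2A1), the main constituents of cartilage matrix, are commonly read as signs of cartilage formation, and SOX9 is the transcription factor that switches both on.

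B held 15805917 reads on genes, E held 15490328 and F held 15052624, within the 11484812 to 18458157 (median 14059194) of the other clones. The mean of the 3 was 957809 reads above that of the others, a difference within the spread between clones (two-sided exact permutation test over 680 splits of the 17 clones, p = 0.406, adjusted p = 0.406 over 3 measures, where the smallest p possible was 0.0029). The share of reads outside genes, 20.1% in B, 19.6% in E and 21.1% in F against 18.8% to 26.8%, differed by less than that spread (exact permutation p = 0.321, adjusted p = 0.406). The share ambiguous between genes was 0.175%, 0.166% and 0.165% against 0.164% to 0.192%. Its difference of means was -0.0082 percentage points, beside an SD of 0.0071 among the other clones (exact permutation p = 0.0765, adjusted p = 0.229). The 100 most abundant genes took 43.0% of the gene reads in B, 43.9% in E and 44.1% in F, which of the other clones only M exceeded (30.3% to 45.7%, median 38.3%). Values below are CPM after TMM scaling. CPM divides the reads of each gene by that library's reads on the 11339 genes with enough reads to fit, and TMM corrects for dominant genes. A count of 0 allows up to 3 reads, which corresponded to 0.162 to 0.261 CPM by library total.

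The distance between 2 libraries was taken as the root mean square difference of log2(CPM + 0.25) over 11459 genes. E and F were 0.416 apart, B and F 0.445, and B and E 0.448, and these were the 2nd, 3rd and 4th smallest of the 136 distances between clones. Only C and O were closer, at 0.235. Just beyond the 3 pairs came D and K at 0.456, C and G at 0.481 and B and J at 0.482. The step from the farthest pair within the trio to the nearest pair outside it was thus small. B lay nearly as close to J, to K (0.491) and to A (0.504) as to E, whereas E was 0.571 from its nearest clone outside the trio, which was M, and F was 0.487 from K. E was thus the most set off from the clones outside the trio, whereas B came near J, K and A, and F came near K. The median over all pairs was 0.739, the median from the trio to the other clones 0.720, and the largest distance 1.01, between G and N. The differences among B, E and F exceeded sampling noise all the same. This was measured on squared differences, among genes with enough reads. Their median was 5.28 times (E and F), 6.04 times (B and F) and 5.74 times (B and E) what the counting of reads alone would give. No clone was sequenced again, so the spread between preparations of 1 clone was not measured.

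**Figure D1:**
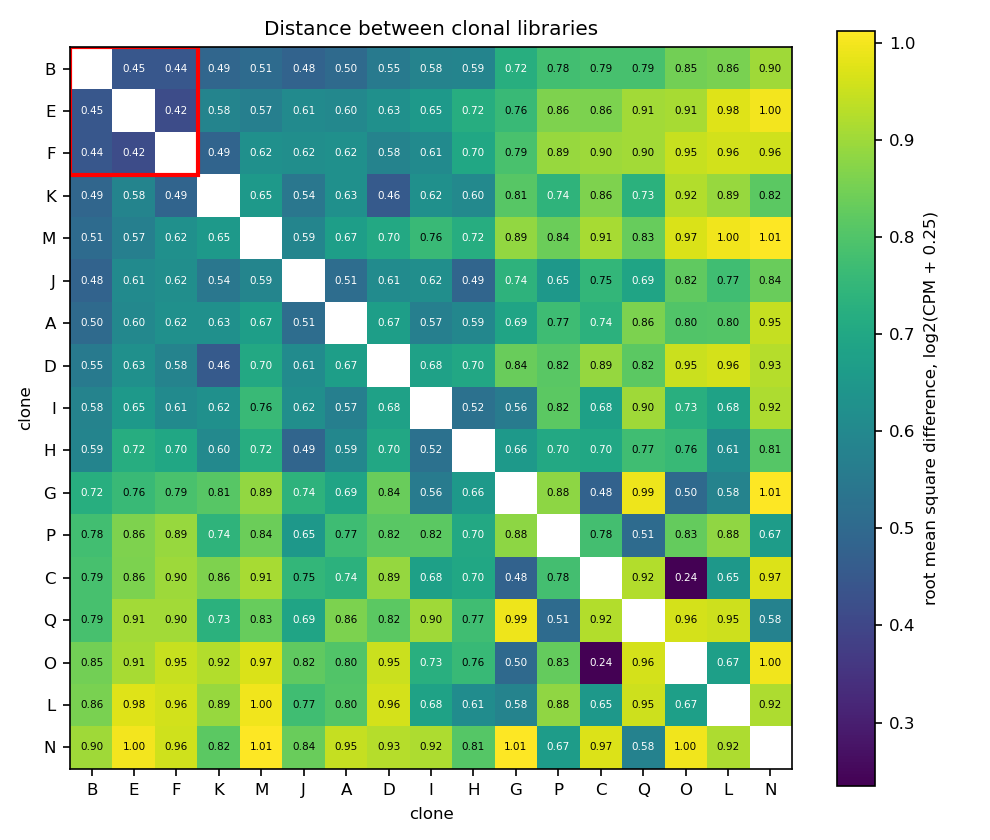
Distance between each pair of the 17 clones, as the root mean square difference of log2(CPM + 0.25), in colour and in digits; B, E and F come first (red box) and the other clones follow in order of their mean distance to the trio. The 3 distances within the box are 0.416 to 0.448, and only C and O, at 0.235, are closer.

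The heterogeneous population did not lie nearest to the trio. It was closest to K (0.609), D (0.628) and J (0.634), with B the 4th at 0.647, F the 6th at 0.739 and E the 7th at 0.749 of the 17 clones.

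Of 11339 genes with enough reads to fit, 143 (1.26%) were higher in each of B, E and F than in every other clone and 155 (1.37%) were lower in each of the 3 than in every other clone. These genes are said below to stand apart. The separations were narrow. The lowest of B, E and F exceeded the highest of the others by a median of 1.04-fold among the genes standing apart on the high side, and on the low side the median step was likewise 1.04-fold. The step exceeded 0.25 on the log2 scale in 13 and 4 genes, with CADPS (1.41-fold) and CAMKK1 (1.26-fold) the widest. The counts depended on the scaling. With library totals in place of TMM, 43 genes stood apart on the high side and 370 on the low side, and 39 of the 143 and 132 of the 155 remained. With DESeq2 size factors 135 and 144 remained. The clone nearest to the trio was most often M, for 36 genes on each side, followed by K for 20 and 27. Leaving out M raised the counts to 218 and 271. Leaving out B, which left E and F alone to stand apart, raised them to 427 and 479, and leaving out E gave 201 and 260. The heterogeneous library, which the choice of clones had not used, lay on the side of the trio, relative to the median of the other 14 clones, for 67 of the 143 genes (46.9%) and 74 of the 155 (47.7%). It lay within the range of the other 14 clones for 116 and 124 of them. For 17 and 19 it lay past all 14 on the side of the trio. It lay past them on the opposite side for 10 and 12. The same counts over all genes were not taken, so these are not read as particular to the genes standing apart.

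The 12 named genes with the largest differences on the high side belong to several families rather than to one pathway. KCTD12, an auxiliary subunit of GABA-B receptors, was at 159 CPM in B, 412 CPM in E and 219 CPM in F, against 12.1 to 131 CPM, median 47.9 in the other clones. E was the highest of all and no other clone reached B, and the fitted log2 fold change of the trio over the others was 2.22 ± 0.52 (SE, n = 3 and 14 clones). Log2 fold changes with their SE stand in brackets from here on. NKD1, an inhibitor within the Wnt pathway that Wnt signalling itself induces, was at 36.4 CPM in B, 61.3 CPM in E and 46.8 CPM in F against 0.308 to 32.3 CPM, median 10.1 (log2 fold change 1.97 ± 0.61). Its lowest level, in L, was near the limit of detection, and the nearest to the trio was M. NCALD, a neuronal calcium sensor, was at 15.1, 18.3 and 15.5 CPM in B, E and F against 0.185 to 14.3 CPM, median 4.49 (1.60 ± 0.68). The range over the other clones was wide for NKD1 and NCALD, so that the trio continued the top of a spread rather than forming a separate level.

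CDH2 encodes N-cadherin, which joins mesenchymal cells to one another, and was at 201 CPM in B, 377 CPM in E and 237 CPM in F against 9.29 to 198 CPM, median 115 (1.38 ± 0.67), but it did not stand apart under library totals. FERMT2 encodes kindlin-2, which activates integrins, and was at 727 CPM in B, 875 CPM in E and 865 CPM in F against 255 to 587 CPM, median 394. It had the smallest error of the 12 (1.09 ± 0.20), and it stood apart under every scaling. EMILIN2, a glycoprotein of elastic fibres, was at 39.2, 45.4 and 48.9 CPM against 6.899 to 30.2 CPM, median 15.6 (1.33 ± 0.35), with the 3 clones near each other and all others below. C1QTNF1, a secreted relative of adiponectin, was at 53.9, 29.4 and 27.1 CPM against 4.53 to 21.6 CPM, median 15.02 (1.32 ± 0.29), with B well above E and F. EMILIN2, C1QTNF1, FERMT2 and KCTD12 had the wider steps between the groups among the 12.

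The remaining high genes stood apart by less. ARTN, a neurotrophic ligand of the GDNF family, was at 15.4, 13.3 and 13.5 CPM against 0.678 to 13.3 CPM, median 3.34 (1.41 ± 0.58). SYT4, a synaptotagmin of vesicle traffic, was at 119, 133 and 144 CPM against 20.3 to 112 CPM, median 61.02 (1.17 ± 0.40). IFIT1, an interferon-induced protein that binds foreign RNA, was at 85.3, 101 and 108 CPM against 13.4 to 84.9 CPM, median 40.7 (1.14 ± 0.43). Of the 11 interferon-response genes with enough reads, IFIT1 included, 3 were above the median of the other clones in all of B, E and F and 4 below it, with a median log2 fold change of -0.06. Over all genes 32.0% were above that median in all 3 and 32.1% below it. TMEM35, a membrane protein of neurons, was at 9.93, 14.9 and 10.9 CPM against 0.902 to 9.69 CPM, median 4.11 (1.48 ± 0.46). POLM, a DNA polymerase of double-strand break repair, was at 28.6, 40.8 and 35.7 CPM against 8.75 to 28.6 CPM, median 16.9 (1.05 ± 0.26), and its lowest value in the trio all but touched the highest of the others.

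**Figure D2:**
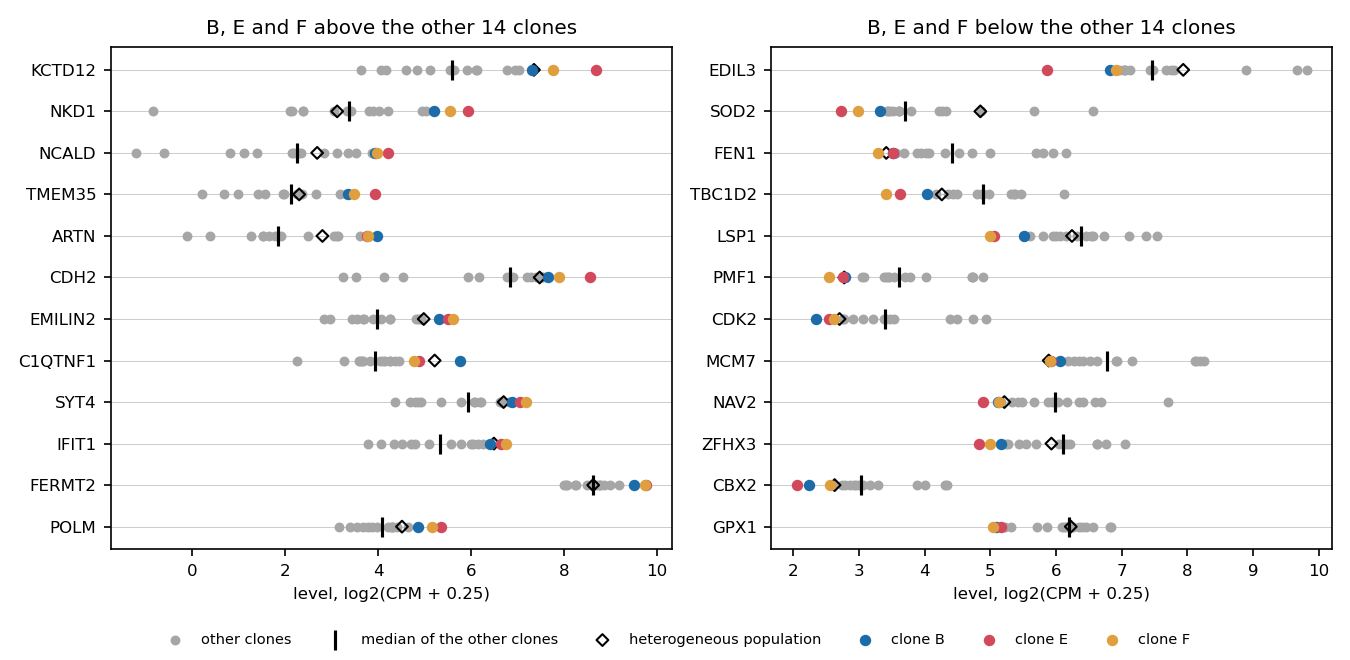
Levels, as log2(CPM + 0.25), of the 12 named genes with B, E and F above all other clones (left) and the 12 with B, E and F below them (right); coloured points are B, E and F, grey points the 14 other clones, black ticks their median, and open diamonds the heterogeneous population. KCTD12 in B, E and F was at 159, 412 and 219 CPM, and the heterogeneous population was at 164 CPM.

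The 12 named genes on the low side likewise belonged to several families. EDIL3, an extracellular ligand of integrins, had the largest difference of the 12 (-1.55 ± 0.69), at 113 CPM in B, 57.9 CPM in E and 119.9 CPM in F against 120.0 to 901 CPM, median 175. F and the lowest of the others nearly coincided, and the gene did not stand apart under the other scalings. SOD2, the superoxide dismutase of mitochondria, was at 9.72, 6.35 and 7.63 CPM against 10.5 to 93.9 CPM, median 12.8 (-1.54 ± 0.68). GPX1, a glutathione peroxidase, was at 33.7, 35.4 and 32.7 CPM against 36.96 to 115 CPM, median 73.5 (-1.14 ± 0.29), with the 3 clones nearly equal. Both kept their place under each scaling, and the median of the trio was 0.597 times that of the other clones for SOD2 and 0.459 times for GPX1.

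FEN1, the nuclease that trims the flaps of lagging-strand DNA, was at 11.2, 11.2 and 9.54 CPM against 11.6 to 71.2 CPM, median 21.2 (-1.52 ± 0.58). CDK2, the kinase that drives entry into S phase, was at 4.83, 5.56 and 5.87 CPM against 5.92 to 30.2 CPM, median 10.3 (-1.29 ± 0.50). MCM7, a subunit of the replicative helicase, was at 66.6, 60.6 and 59.8 CPM against 66.6 to 306 CPM, median 109 (-1.28 ± 0.51). The steps of these 3 were small and none of the 3 stood apart under library totals, although all were low. PMF1, part of the kinetochore complex that attaches chromosomes to the spindle, was at 6.66, 6.49 and 5.58 CPM against 7.97 to 29.4 CPM, median 12.02 (-1.33 ± 0.42), with the widest step of the 12. The heterogeneous population was low for these genes too, at 10.4 CPM for FEN1, 59.02 CPM for MCM7 and 6.59 CPM for PMF1.

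CBX2, a Polycomb subunit that reads methylated histone H3, was at 4.49, 3.896 and 5.65 CPM against 5.85 to 19.96 CPM, median 7.93 (-1.15 ± 0.39). ZFHX3, a large zinc finger and homeobox transcription factor, was at 35.6, 28.1 and 31.8 CPM against 37.4 to 132 CPM, median 69.00 (-1.17 ± 0.35). Both are regulators of chromatin or transcription, and B, E and F lay together just under the lowest of the others. LSP1, an actin-binding protein first known from leukocytes, was at 45.6, 32.97 and 31.8 CPM against 48.2 to 186 CPM, median 83.3 (-1.35 ± 0.38). TBC1D2, a regulator of Rab GTPases, was at 16.1, 12.1 and 10.3 CPM against 17.9 to 69.7 CPM, median 29.2 (-1.36 ± 0.35). NAV2, a neuron navigator protein, was at 34.3, 29.4 and 35.00 CPM against 35.7 to 208 CPM, median 63.1 (-1.18 ± 0.43). In LSP1 and TBC1D2 E and F were the lowest and B came nearer to the other clones, and in NAV2 E was the lowest.

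Among lists of genes with known roles, the one with the most uniform difference was the cell cycle. All 25 measured genes of replication and mitosis were below the median of the other clones in each of B, E and F, where 32.1% of all genes were, and all 25 fitted log2 fold changes were below 0, as were 54.0% of all, with a median of -1.56 against -0.04 over all genes. MKI67, the antigen of cycling cells that Ki-67 antibodies detect, was at 48.96 CPM in B, 58.8 CPM in E and 70.2 CPM in F against 21.6 to 591 CPM, median 118 (-1.96 ± 0.90). MCM5, a helicase subunit, was at 14.6, 17.8 and 19.7 CPM against 10.3 to 184 CPM, median 42.05 (-2.04 ± 0.84). E2F1, the transcription factor that opens S phase, was at 5.100, 4.69 and 4.402 CPM against 2.899 to 71.2 CPM, median 11.9 (-2.27 ± 0.92). None of the 25 stood apart, and M was the lowest of the other clones in 24 of them. In the mean over the list (log2 levels centred on each gene's mean), M was the lowest clone at -1.84, followed by B at -1.03, E at -0.92, D at -0.81 and F at -0.72. J, Q and K were near F (-0.68, -0.67 and -0.65), whereas G, C, L and O were far higher at 1.63, 1.70, 1.76 and 1.88. The median MKI67 level of B, E and F was 0.497 times the median of the others, a smaller gap than the fitted value, which averages over all 14. In bulk RNA, fewer cycling cells and less of these transcripts in each cell cannot be told apart.

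Genes that restrain the cycle did not move as 1 group. Of 16 measured genes of arrest and the p53 response, 12 were above the median of the other clones in B, E and F (background 32.0%) and 2 below it. Their median log2 fold change of 0.18 became 0.02 with library totals. In the list mean F ranked 2nd, B 7th and E 9th of the 17 clones. TP53INP1, a p53-induced regulator of cell death and autophagy, was at 683, 502 and 653 CPM against 174 to 587 CPM, median 288 (0.92 ± 0.32). GADD45B, a stress-induced gene, was at 44.3, 60.7 and 62.00 CPM against 17.6 to 69.5 CPM, median 32.1 (0.69 ± 0.32). The inhibitor that p53 induces most directly, CDKN1A (p21), was level at 188, 202 and 178 CPM against 92.3 to 292 CPM, median 172 (-0.0017 ± 0.26). CDKN2C (p18), an inhibitor of CDK4 and CDK6, was lower at 9.32, 5.05 and 6.82 CPM against 7.26 to 30.5 CPM, median 18.8 (-1.32 ± 0.39).

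**Figure D3:**
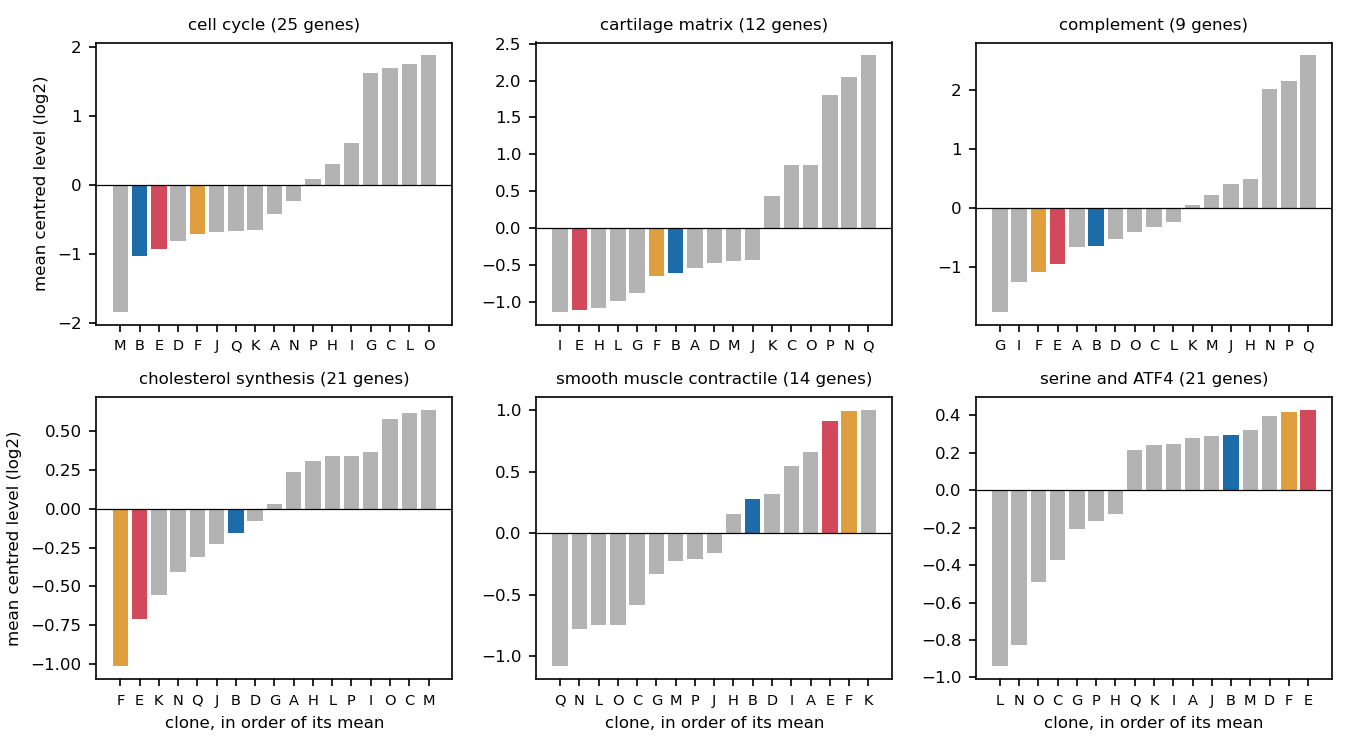
Mean level of 6 gene lists in each clone, as log2(CPM + 0.25) centred on each gene's mean over the 17 clones, with clones in order of their mean; B is blue, E red, F orange and the other clones grey. B, E and F are at the low end for the cell cycle, where only M (-1.84) is lower than all 3, and at or near the high end for the serine and ATF4 genes.

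Most genes of cartilage matrix were below the median of the other clones in the trio, but in the mean over the list only E was near the bottom. Of 12 measured genes of cartilage matrix, 8 were below the median of the other clones in all of B, E and F (background 32.1%) and 1 above it (32.0%), with a median log2 fold change of -2.0005. ACAN was at 89.02 CPM in B, 38.4 CPM in E and 91.3 CPM in F against 18.5 to 2752 CPM, median 196 (-3.06 ± 1.40), and E was near the bottom of the range while B and F lay below its middle. COL2A1 was at 30.3, 23.9 and 35.1 CPM against 16.7 to 1217 CPM, median 115 (-3.29 ± 1.37). The link protein HAPLN1, which ties aggrecan to hyaluronan, was at 9.11, 9.81 and 6.09 CPM against 5.300 to 119.8 CPM, median 21.1 (-2.06 ± 0.96). The highest clones were far above the rest. Q, N and P had list means of 2.34, 2.05 and 1.81, against -0.60 in B, -1.11 in E and -0.64 in F. The median of the list mean over the other clones was -0.44, and B, F and E ranked 11th, 12th and 16th of the 17. A (-0.54), D (-0.47), M (-0.44) and J (-0.43) were close to B and F. Clones I, H, L and G were below both B and F (-1.14, -1.08, -0.99 and -0.88). For PRG4, the joint lubricin, the median of the other clones was only 1.45 CPM against 0.952, 0.938 and 0.88 CPM in B, E and F, although its highest clone reached 547 CPM and the fitted value was -5.91 ± 2.94, which limma voom put at -1.97. COL9A2, a chain of the type IX collagen that coats type II fibrils, was likewise near the limit of detection in the trio at 0.408, 0.216 and 0.22 CPM (others 0.179 to 34.9 CPM, median 1.16). MATN3, a cartilage matrilin, went the other way in B and F but not in E. It was at 4.08, 1.08 and 9.098 CPM against 0.348 to 8.22 CPM, median 2.34 (0.97 ± 0.71). COL11A1, whose fibrils also form outside cartilage, was level at 3767, 3200.1 and 3538 CPM against 1449.7 to 6754 CPM, median 3368 (0.08 ± 0.32). COMP, an oligomeric matrix protein of cartilage and tendon, was at 2.18, 0.794 and 3.67 CPM against 0.139 to 51.1 CPM, median 1.73 (-1.94 ± 1.51, and -1.22 without N), and all 3 clones lay inside the range of the others.

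The regulators of cartilage formation were low in a more even way. Of 10 measured, 7 were below the median of the other clones in the 3 clones (background 32.1%) and 1 above it (background 32.0%, median log2 fold change -0.84), and the list mean was the lowest of all 17 clones in E (-0.78) and the next in F (-0.58). SOX9 was at 5.58 CPM in B, 3.103 CPM in E and 3.15 CPM in F against 2.84 to 22.8 CPM, median 12.6 (-1.71 ± 0.54). SOX5, which acts with it, was at 13.9, 9.02 and 11.6 CPM against 12.2 to 45.02 CPM, median 18.6 (-0.85 ± 0.34). SOX6, the other partner, was at 12.2, 6.35 and 5.58 CPM against 3.74 to 25.4 CPM, median 12.5 (-0.83 ± 0.47). E and F were thus at the foot of the range for SOX9 and B was some way above. The receptors followed. FGFR3, which restrains growth-plate chondrocytes, was at 1.09, 0.289 and 1.101 CPM against 0.604 to 11.7 CPM, median 3.08 (-2.20 ± 0.76). BMPR1B, a receptor for BMP and GDF ligands, was at 3.81, 2.81 and 2.201 CPM against 2.600 to 21.9 CPM, median 7.01 (-1.74 ± 0.74). The heterogeneous population was low as well, at 3.17 CPM for SOX9, 17.4 CPM for COL2A1 and 56.3 CPM for ACAN. Most enzymes of glycosaminoglycan synthesis, which build the chains that aggrecan carries, differed little, with a median log2 fold change of -0.16 over 30 genes. In the trio 8 were above the median of the other clones (background 32.0%) and 13 below it (32.1%). None of them stood apart, and XYLT1, which starts the chain on the core protein, was at 106, 115 and 102 CPM against 95.8 to 436 CPM, median 174 (-1.03 ± 0.41).

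Fibrous matrix showed the opposite tendency for its most abundant collagens. COL1A1, a chain of type I collagen, was at 93871 CPM in B, 101180.0 CPM in E and 102370.0 CPM in F against 13839 to 88119 CPM, median 51182 (0.84 ± 0.37). COL1A2, the partner chain, was at 58113, 59309 and 67615 CPM against 16769 to 74773 CPM, median 33661 (0.72 ± 0.33). COL3A1 was at 16825, 14368 and 18334 CPM against 3006 to 34591 CPM, median 6747 (0.97 ± 0.52). COL1A1 stood apart, while M exceeded the trio for COL1A2 and COL3A1. FBN1, fibrillin-1 of elastic microfibrils, stood apart at 6586, 8525 and 6449.7 CPM against 1933 to 6112 CPM, median 4118 (0.85 ± 0.27). SPARC, a collagen-binding glycoprotein, was at 25169, 25877 and 25629 CPM against 7060.5 to 39067 CPM, median 14632 (0.58 ± 0.35). Of the 22 measured genes of the list, 13 were above the median of the other clones in all 3 (background 32.0%) and 4 below it. The median log2 fold change of 0.27 became 0.12 with library totals. In the list mean D and P (both 0.36) were above B (0.28), E (0.25) and F (0.23), and J (0.21) was close to them. THBS2, a thrombospondin that limits vessel growth and fibril thickness, went far the other way, at 116 CPM in B, 60.4 CPM in E and 125 CPM in F against 118 to 2391 CPM, median 448 (-2.85 ± 0.93). COL14A1, a fibril-associated collagen, was lower too, at 196, 124 and 115 CPM against 97.96 to 1002 CPM, median 269 (-1.38 ± 0.65). Fibronectin (FN1) was at 20902, 15295 and 15223 CPM against 11065 to 61002 CPM, median 23816 (-0.70 ± 0.44). The heterogeneous population exceeded all 17 clones for COL1A1 (114070.0 CPM).

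**Figure D4:**
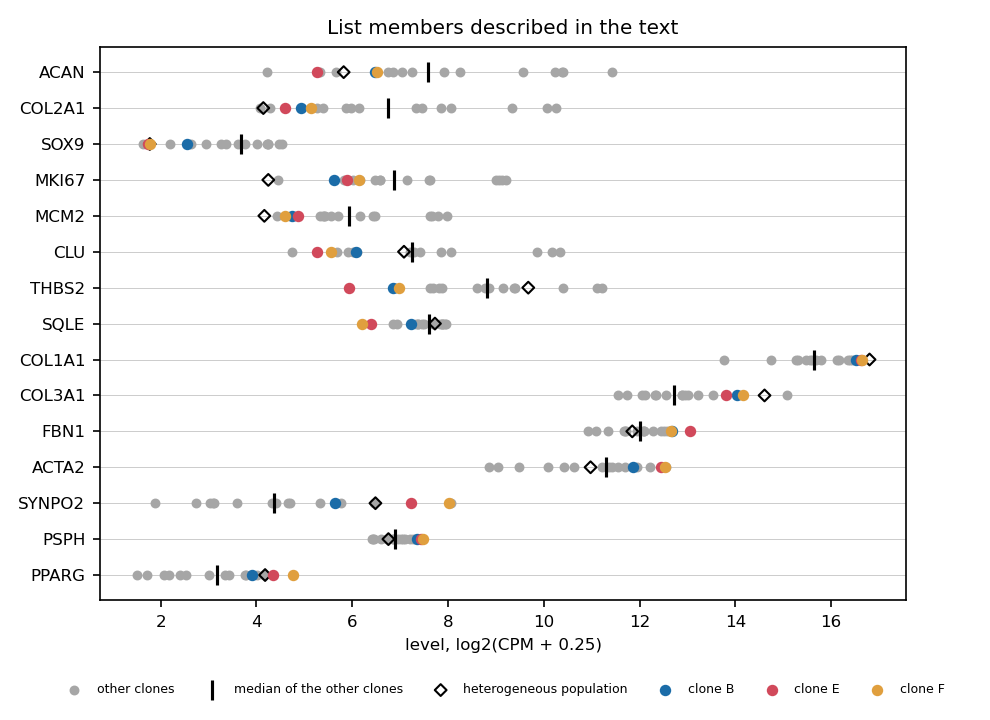
Levels, as log2(CPM + 0.25), of 15 list members in every library, with the symbols of the plot of genes standing apart; cartilage, cell cycle, complement and cholesterol genes and THBS2 are in the upper rows and other matrix, contractile, serine and fat-lineage genes in the lower. B, E and F lie left of the median for ACAN, SOX9, MKI67, CLU and SQLE and right of it for COL1A1, FBN1, ACTA2, PSPH and PPARG.

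All 14 measured genes of the smooth muscle contractile apparatus had a fitted log2 fold change above 0, as did 46.0% of all genes, with a median of 0.70. In all of B, E and F, 11 were above the median of the other clones (background 32.0%). ACTA2, smooth muscle actin, was at 3704 CPM in B, 5589 CPM in E and 5948 CPM in F against 459.6 to 6004 CPM, median 2505 (1.04 ± 0.56). TAGLN (transgelin), a binder of actin, was at 3046, 4164 and 4187 CPM against 1172 to 4102 CPM, median 2182 (0.69 ± 0.29). The calponin CNN2 was the only one of the 14 to stand apart, at 622, 710.3 and 645 CPM against 173 to 619.7 CPM, median 488 (0.51 ± 0.25), and under library totals it did not. SYNPO2, a protein of the Z-disc and stress fibres, showed how the 3 differ, at 49.3, 150.4 and 260.5 CPM in B, E and F against 3.45 to 268 CPM, median 20.3 (1.87 ± 0.89), with F far above B. In the list mean K was the highest clone at 1.004, followed by F at 0.99 and E at 0.91, whereas A (0.66), I (0.55) and D (0.32) came before B (0.27). B was therefore in the upper middle of the clones for contractile genes, and E and F at the top.

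The cholesterol synthesis pathway was low, in E and F most of all. Of 21 measured genes, all had a fitted log2 fold change below 0, 20 were below the median of the other clones in the 3 clones (background 32.1%), and the median was -0.78. F had the lowest list mean of all clones at -1.01 and E the next at -0.71, while B, at -0.15, was above K, N, Q and J. SQLE, the squalene epoxidase, was at 149 CPM in B, 84.1 CPM in E and 73.8 CPM in F against 116 to 249.9 CPM, median 193 (-0.93 ± 0.25). INSIG1, a sterol-regulated brake on the pathway, was at 148, 36.2 and 20.5 CPM against 42.9 to 300.0 CPM, median 159 (-1.15 ± 0.61). In both genes E and F lay below every other clone and B within their range. EBP, a sterol isomerase, was the member that stood apart, with B, E and F at 12.9, 12.7 and 11.4 CPM against 13.9 to 29.9 CPM, median 18.5 (-0.67 ± 0.21). FASN, the fatty acid synthase, was at 223, 181 and 129 CPM against 162 to 773 CPM, median 409 (-1.23 ± 0.45). The heterogeneous population was high for INSIG1, at 319 CPM, and for SREBF2, the transcription factor of the pathway, at 443 CPM (228, 210.2 and 186 CPM in B, E and F, others 225 to 403 CPM, median 306). Its mean over the whole list was not taken.

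Genes of serine synthesis and of the amino acid response driven by ATF4 were at the high end. Of 21 measured, 20 had a fitted log2 fold change above 0 and 17 were above the median of the other clones in all 3 (background 32.0%), with a median of 0.43. E (0.43) and F (0.42) had the highest list means of the 17 clones, and B (0.30) came after D (0.39) and M (0.32). PSPH, the last enzyme of serine synthesis, stood apart at 163 CPM in B, 173 CPM in E and 177 CPM in F against 84.6 to 160.2 CPM, median 119 (0.52 ± 0.17), although not under library totals. PCK2, the mitochondrial carboxykinase, was at 185, 235 and 264 CPM against 80.1 to 221 CPM, median 143 (0.67 ± 0.25). ASNS, asparagine synthetase, was at 309, 345 and 382 CPM against 151 to 345 CPM, median 257 (0.52 ± 0.21). PHGDH, the first enzyme of serine synthesis, was level at 386, 476 and 402 CPM against 151 to 683 CPM, median 433 (0.0033 ± 0.26). DDIT3 (CHOP), a stress-response transcription factor, was level too, at 71.9, 57.00 and 69.7 CPM against 19.7 to 114 CPM, median 68.5 (-0.01 ± 0.44). The differences were small beside those of the cell cycle, and their sign was the same under library totals (list median 0.29).

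Complement genes, which stromal cells make as well as the liver, were low. All 9 measured had a fitted log2 fold change below 0 (54.0% of all genes did) and 7 were below the median of the other clones in B, E and F (background 32.1%), with a median of -2.15. C3, the central component, was at 1.496, 1.52 and 0.88 CPM against 1.18 to 8.39 CPM, median 3.32 (-1.52 ± 0.53). CLU (clusterin), which blocks the final assembly, was at 67.1, 38.2 and 46.8 CPM against 26.7 to 1295 CPM, median 153 (-2.72 ± 1.22). C1R, a protease of the classical pathway, was at 1.97, 1.37 and 0.954 CPM against 0.279 to 136 CPM, median 4.46 (-3.90 ± 1.81). CFB, a protease of the alternative pathway, was at 0.068, 0.216 and 0.0734 CPM, which are 1, 3 and 1 reads, against 0 to 12.9 CPM, median 0.781 (-4.40 ± 1.91). The high clones were the same as for cartilage matrix, Q (2.58), P (2.15) and N (2.02), and G (-1.76) and I (-1.27) were lower than any of the trio (B -0.64, E -0.96 and F -1.09). Of 10 cytokines and chemokines, 2 were above the median of the other clones in all 3 (background 32.0%) and 1 below (32.1%). CCL5, a chemokine for T cells and monocytes, was at 2.24 CPM in B, 21.9 CPM in E and 14.1 CPM in F against 0.37 to 5.92 CPM, median 2.17 (2.25 ± 0.57), so that E and F exceeded every other clone and B did not. CXCL12, which holds blood stem cells in the marrow, was lower at 54.5, 70.5 and 96.7 CPM against 34.7 to 728 CPM, median 163 (-1.60 ± 0.72).

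**Figure D5:**
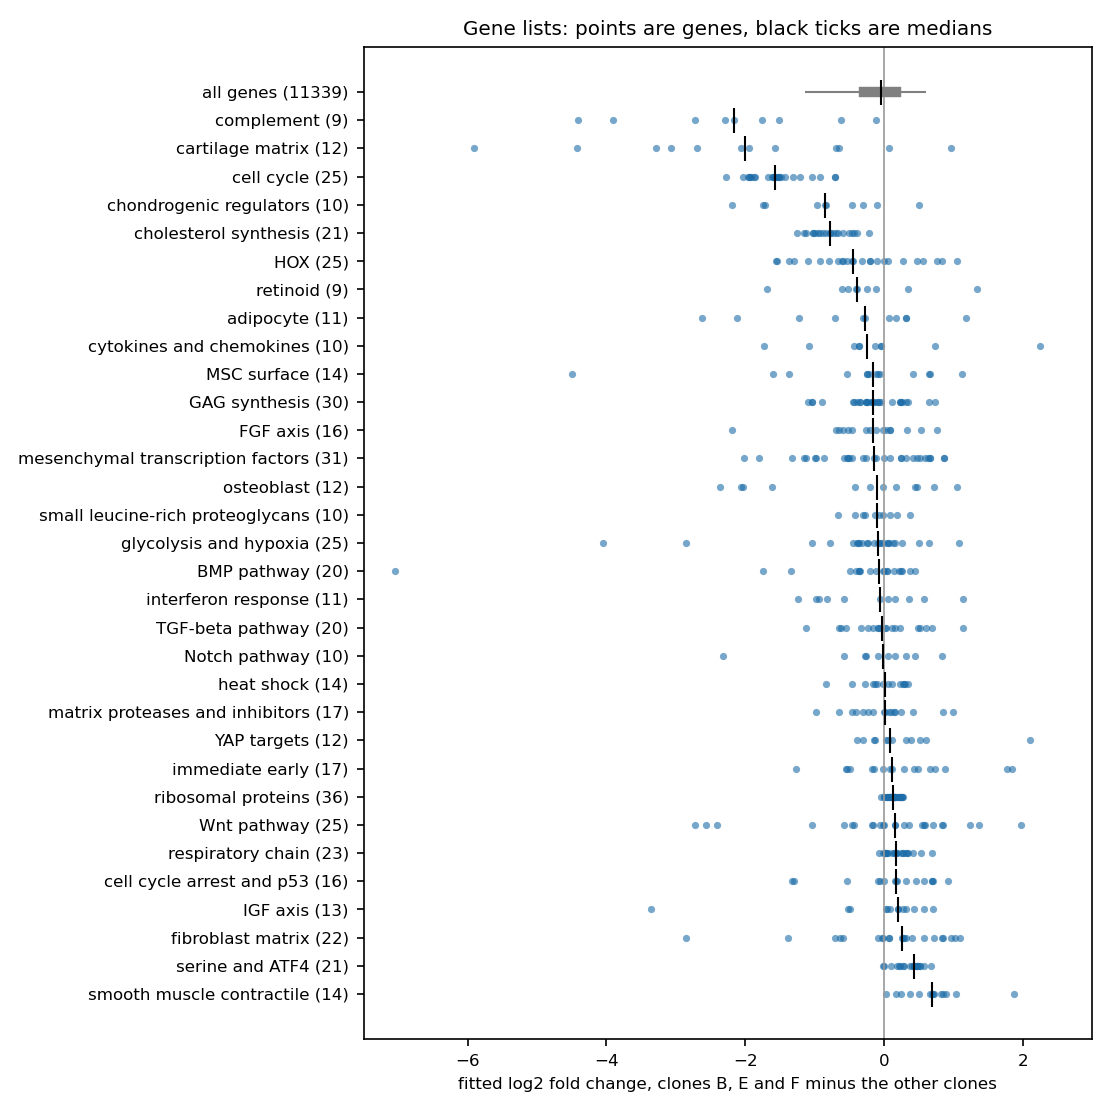
Fitted log2 fold change of B, E and F over the other 14 clones for each measured member of the lists with 9 or more measured genes (points, number in brackets), with the median as a black tick; the top row gives all 11339 genes as a median, a box from the 25th to the 75th percentile and a line from the 5th to the 95th. Cell cycle and cholesterol synthesis lie wholly below 0 and smooth muscle contractile genes wholly above it.

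Signalling pathways were mixed. Over all genes 32.0% were above the median of the other clones in all 3 and 32.1% below, and the counts of every list that follows are to be read against these shares. In the Wnt pathway 9 of 25 measured genes were above and 6 below, and the share above was near that of all genes. Besides NKD1, the ligand WNT5A was at 16.4, 75.4 and 20.3 CPM against 3.95 to 38.5 CPM, median 8.57 (1.37 ± 0.59), highest in E. The secreted antagonist DKK2 was low at 2.11, 2.89 and 3.67 CPM against 1.99 to 58.9 CPM, median 12.5 (-2.57 ± 0.97). CTNNB1, beta-catenin itself, was at 1226, 1005 and 1198 CPM against 536 to 1206 CPM, median 739 (0.55 ± 0.21). In the TGF-beta pathway 8 of 20 were above and 5 below, with a median log2 fold change of -0.02. SKIL (SnoN), a repressor that the pathway induces against itself, stood apart at 23.9, 22.8 and 20.5 CPM against 11.2 to 18.7 CPM, median 17.2 (0.49 ± 0.15), but not under library totals. INHBA, the activin subunit, was at 139, 359 and 234 CPM against 28.9 to 249.7 CPM, median 92.03 (1.14 ± 0.47). LTBP3, which stores latent TGF-beta, was at 171, 114 and 144 CPM against 144 to 617 CPM, median 299.5 (-1.12 ± 0.41). BMP genes were also split, 7 above and 6 below of 20. Their extreme was BMPER, a secreted BMP modulator, with 1, 0 and 0 reads in B, E and F, while the others ranged over 0.0601 to 37.96 CPM, median 0.529.

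Immediate early genes, which answer serum and handling within minutes, were partly high. FOS was at 269 CPM in B, 223 CPM in E and 292 CPM in F against 18.6 to 228 CPM, median 68.9 (1.78 ± 0.53). FOSB was at 53.1, 29.8 and 58.7 CPM against 0.879 to 40.6 CPM, median 7.96 (1.85 ± 0.78). DUSP1, a phosphatase that ends MAP kinase signals, stood apart at 257, 237 and 279 CPM against 102 to 236 CPM, median 145 (0.73 ± 0.20), although not under library totals. FOSL1, a later relative of FOS, was low at 20.5, 26.8 and 26.7 CPM against 6.52 to 132 CPM, median 46.6 (-1.26 ± 0.61), and over 17 genes the median was 0.11, with 8 above and 2 below. That median became -0.06 with library totals. Targets of YAP, the sensor of stiffness, had 5 of 12 above and 3 below, their median log2 fold change of 0.09 became -0.07 with library totals, and F led the trio in the 2 that follow. CYR61, a matricellular protein, was at 680.2, 1012 and 1374 CPM against 374 to 990.2 CPM, median 641 (0.61 ± 0.23, and 0.35 without F). ANKRD1, a nuclear ankyrin repeat protein, was at 0.408, 1.66 and 9.54 CPM against 0 to 4.16 CPM, median 0.128 (2.10 ± 1.19), and without F its log2 fold change was 0.23. In the IGF axis 7 of 13 were above and 2 below, with IGFBP7 at 423, 485 and 675 CPM against 41.5 to 954 CPM, median 253 (0.71 ± 0.66). In the Notch pathway the split was 4 and 3 of 10, and in the FGF axis 4 and 3 of 16.

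The lineage markers of bone and fat were split. RUNX2, the first transcription factor of the osteoblast lineage, was at 115, 151 and 146 CPM against 62.9 to 155 CPM, median 96.1 (0.47 ± 0.21). SP7 (osterix), which acts after it, was at 38.2, 84.1 and 42.6 CPM against 5.21 to 66.8 CPM, median 21.8 (1.05 ± 0.60). Osteopontin (SPP1) was level at 791, 1014 and 809.5 CPM against 251 to 1618 CPM, median 861 (-0.01 ± 0.40). PHEX, a late osteoblast gene, was low at 0.272, 0.0722 and 0.147 CPM against 0.139 to 2.37 CPM, median 0.487 (-2.36 ± 0.94). Over 12 osteoblast genes 5 were above and 2 below. PPARG, the regulator of fat cell formation, was high at 14.8 CPM in B, 20.2 CPM in E and 26.8 CPM in F against 2.57 to 17.6 CPM, median 8.83 (1.18 ± 0.46). The fatty acid carrier FABP4 was low, at 2.79, 0.794 and 2.42 CPM against 1.09 to 77.6 CPM, median 7.83 (-2.62 ± 1.14). The hormone adiponectin (ADIPOQ) was low as well, at 2.99, 0.577 and 0.734 CPM against 1.16 to 25.4 CPM, median 5.59 (-2.11 ± 0.86, and -3.24 without B). LPL, lipoprotein lipase, was within the range of the others at 2.79, 2.16 and 4.11 CPM against 0.836 to 13.6 CPM, median 2.57 (-0.70 ± 0.69). Over 11 adipocyte genes 5 were above and 3 below, with a median log2 fold change of -0.28.

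HOX genes record the position of a cell's origin along the body, and here 9 of 25 were below the median of the other clones in all 3, a share near the 32.1% of all genes, and 5 above, with a median log2 fold change of -0.44. HOXA5 was at 6.32, 2.67 and 4.402 CPM against 5.21 to 23.1 CPM, median 9.03 (-1.37 ± 0.47). HOXD3 was at 1.56, 1.66 and 1.32 CPM against 1.29 to 11.1 CPM, median 3.46 (-1.54 ± 0.58). HOXC8, which was higher, was at 2.99, 4.11 and 7.78 CPM against 0.863 to 10.8 CPM, median 1.57 (0.83 ± 0.59). Of 31 mesenchymal transcription factors 9 were above and 11 below. MEOX2 was at 1.700, 2.31 and 6.897 CPM against 2.51 to 61.4 CPM, median 6.05 (-2.01 ± 0.99). Ribosomal protein genes (26 of 36 above, median 0.14) and nuclear genes of the respiratory chain (16 of 23 above, median 0.17) were slightly higher, but with library totals their medians became -0.02 and -0.004, so that their direction rests on the scaling. Small leucine-rich proteoglycans, which organize collagen fibrils, were split (3 above and 1 below of 10, median -0.10), as were matrix proteases and their inhibitors (4 above and 3 below of 17) and retinoid genes (1 above and 3 below of 9). The median of the proteases also changed sign with library totals, from 0.02 to -0.13. The same held for heat shock genes (0.02 and -0.15), in which DNAJB1, a co-chaperone, was at 55.01, 47.3 and 45.3 CPM against 55.2 to 77.7 CPM, median 68.5 (-0.46 ± 0.12).

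B, E and F were not alike throughout. Among 9012 genes with a mean of 5 CPM or more over the 3, the median range was 0.24 on the log2 scale, and 298 genes (3.31%) ranged over more than 1. B was the highest of the 3 for 105 of these, E for 105 and F for 88, so that no 1 clone accounted for the differences. RASGRF2, an exchange factor for Ras, was at 13.3 CPM in B, 1.44 CPM in E and 13.9 CPM in F, and RGS7, a regulator of G proteins, at 12.4, 0.938 and 11.7 CPM. Both were low in E alone. SFRP4, a secreted Wnt antagonist, was at 18.1, 1.88 and 3.302 CPM and highest in B. NDUFA4L2, a mitochondrial gene induced by hypoxia, was at 54.5, 129 and 12.4 CPM, and so highest in E and lowest in F. The glycolysis and hypoxia list followed this order, with a mean of 0.21 in E (5th of 17), -0.09 in B (10th) and -0.60 in F (16th). SLC2A1, the glucose transporter GLUT1, was at 58.8, 87.2 and 30.9 CPM, LDHA, lactate dehydrogenase, at 112, 144 and 70.5 CPM, and BNIP3, a mitophagy receptor induced by hypoxia, at 96.7, 148 and 39.03 CPM.

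The cell type on the label was checked by markers. MSC surface markers summed to 4687 to 5491 CPM in B, E and F, within the 3414 to 6250 CPM of the other clones, with ENG at 188, 198 and 185 CPM, NT5E at 350.1, 316 and 369 CPM and THY1 at 302, 273 and 249 CPM. Of the 14 measured members, 4 were above the median of the other clones in all 3 and 6 below it, with a median log2 fold change of -0.16. The lowest was VCAM1 at -4.49, which limma voom put at -2.19. LEPR, a marker of marrow stroma in vivo, had no read in any of the 3. Markers of macrophages summed to 33.7 to 73.4 CPM in the trio against 15.3 to 92.7 CPM, median 32.5. Of the 20, 6 were at 0 in all 3 (C1QB, C1QC, CYBB, ITGAM, LYZ and MARCO). Among the 5 measured, 2 had a fitted log2 fold change above 0 and 3 below it. FCER1G, an Fc receptor chain of myeloid cells, stood apart on the low side at 0.544, 0.505 and 0.514 CPM against 0.608 to 1.38 CPM, median 0.91 (-0.86 ± 0.30). Endothelial markers summed to 17.5 to 33.3 CPM against 20.4 to 76.3 CPM with 6 of 12 at 0, CDH5 among them. Erythroid markers (5 of 10 at 0, the haemoglobin genes among them) summed to 4.76 to 10.5 CPM against 2.34 to 12.0344 CPM. Lymphoid markers (5 of 12 at 0) summed to 0.680 to 2.16 CPM against 0.360 to 2.33 CPM, and epithelial markers (6 of 11 at 0) to 0.734 to 2.31 CPM against 0.330 to 5.71 CPM. Schwann and neural markers (4 of 12 at 0) summed to 83.8 to 112 CPM against 81.0 to 234 CPM. Skeletal muscle markers (5 of 11 at 0, MYOD1 and MYOG among them) summed to 155 to 221 CPM against 104 to 276 CPM. Pericyte markers, at 524 to 871 CPM against 415 to 1107 CPM, were mostly CSPG4, with RGS5, KCNJ8 and STEAP4 at 0 in the trio. For each of these lists the sums of B, E and F overlapped those of the other clones.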

How the data were processed

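Poly(A) RNA of 17 clones and 1 heterogeneous population was sequenced, 1 library each. The authors aligned reads with STAR 2.3.0e to the bosTau7 genome and counted them on RefSeq genes with HTSeq, and the deposited values are raw counts of reads for 16989 genes, not normalized. The 5 tally lines at the end of a file belong to no gene. They were kept out of library sizes, and reads outside genes were 18.8% to 26.8% of a library. The strand setting was not given in the sources used here and the kit does not mark strand, so reads of a gene and an antisense partner cannot be told apart. Of the symbols, 15471 (91.06%) matched the RefSeq table of ARS-UCD2.0, which is not the authors' build, so no coordinates are printed.

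Groups were the clones titled B, E and F and the 14 other clones. The members and the gene lists were chosen with earlier results of these data known, and the 3 clones by their expression, so no gene was given a p-value. Genes passing filterByExpr (11339) were fitted with edgeR 4.0.16 (TMM, glmQLFit) in R 4.3.3, and the SE is the log2 fold change divided by the square root of its F. The biological coefficient of variation was 33.9%. A gene stands apart where B, E and F all lie above, or all below, the other 14. Named genes are the 12 largest log2 fold changes on each side among those with a mean of 5 CPM or more and no code name, up to 4 list members standing apart or else the 2 largest, the markers the study used, and the 6 genes with the widest range over B, E and F. Further list members were named after their values were seen, and some genes that the rule names are not reported here. Of 42 lists with 791 genes, 575 genes were measured. Distances used genes above 1 CPM in at least 1 clone. Exact permutation tests compared 3 library measures, with Benjamini-Hochberg adjustment. DESeq2 1.42.0 size factors, limma 3.58.1 (voom), library totals, other filters and pseudocounts, other distance measures and leaving out each clone were alternatives, and the fits were tested on simulated data. Tables, tests and plots were made in Python 3.11.15 with scipy 1.17.1, pandas 2.3.3, numpy 2.4.6 and matplotlib 3.10.9. Gene lengths were not used here, so levels are not compared between genes. Counting limits cover counting error only.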

Additional observations from a re-analysis of the deposited data

How the results depend on the processing

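With library totals the genes standing apart were 43 higher and 370 lower, against 143 and 155, and the median log2 fold change of all genes moved from -0.04 to -0.20. Of the 42 list medians 7 changed sign there, all small, and of these heat shock (-0.15) and the respiratory chain (-0.004) moved by more than the spread between clones. Leaving out 1 clone at a time, the counts ranged from 143 to 427 higher and from 157 to 479 lower, with the highest counts without B. Leaving out a clone can only ease the condition that a gene stands apart, apart from changes in scaling. The mean distance within the trio over the median of all pairs was 0.59, and became 0.61 with gene-wise scaled values, 0.28 with 1 minus Spearman's rho, 0.55 over the 500 most variable genes and 0.54 with a pseudocount of 1, while its 3 pairs stayed among the 5 closest. The difference in ambiguous reads ranged from -0.0114 to -0.0066 percentage points over the clones left out, and without M it was -0.0092 (exact permutation p = 0.0214, unadjusted). The difference in reads on genes ranged from 726502 to 1262913, and that in reads outside genes from -1.69 to -0.87 percentage points. For 102 named genes, 2308 of 2346 alternatives stayed within the spread between clones, and 38 moved. The sign changed in 25 of the 2346, for 7 genes whose log2 fold change was at most 0.55 in size, SPP1 and RGS7 among them. As differences of means of log2(CPM + 2), genes of low level gave smaller values: -0.37 for PHEX, -0.75 for CFB, -0.91 for FGFR3 and -1.49 for C1R. No paired analysis was possible because each clone has 1 library and clones of the 2 groups share no pairing. MMP13 (2, 1 and 1 reads in B, E and F) and GAPDH (6, 2 and 1) had too few reads to be fitted, and why so few reads fell on GAPDH was not tested.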

Other observations

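Gene groups outside the lists above were collected after the values had been seen and carry no test. Other genes of DNA replication followed the cell cycle: of 34 measured, all 34 had a fitted log2 fold change below 0 (54.0% of all genes did), 30 were below the median of the other clones in B, E and F (32.1%), and the median was -0.98. FEN1, MCM7, CDK2, SLBP, which binds histone mRNA, and H2AFX, a histone variant, stood apart. SLBP was at 19.1, 18.4 and 17.3 CPM in B, E and F against 19.8 to 48.1 CPM, median 27.2 (-0.74 ± 0.29), and H2AFX at 20.9, 22.9 and 18.8 CPM against 24.03 to 63.00 CPM, median 33.1 (-0.92 ± 0.33).

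Genes of protein folding and degradation in the endoplasmic reticulum, through which collagen passes, were slightly high. Of 44 measured, 29 were above the median of the other clones in all 3 (32.0% of all genes were) and 3 below, with a median log2 fold change of 0.21 that became 0.04 with library totals. ERP44, a thiol chaperone, stood apart at 194, 213 and 233 CPM against 99.3 to 180.3 CPM, median 132 (0.66 ± 0.16), as did DERL1, a channel component of degradation, at 312, 326 and 338 CPM against 171 to 310.2 CPM, median 224 (0.52 ± 0.16), and ATF6, a sensor of unfolded protein, at 167, 173 and 195 CPM against 81.1 to 153 CPM, median 131 (0.52 ± 0.17). EMC7 and SEC11C also stood apart, but of these 5 genes only ERP44 did so with library totals. Of 18 aminoacyl-tRNA synthetases, 12 were above the median in all 3 and 0 below, and IARS (407, 488 and 517 CPM against 197 to 392 CPM, median 295, 0.76 ± 0.18) and GARS (749, 802 and 840.0 CPM against 349 to 699 CPM, median 551, 0.58 ± 0.20) stood apart, but with library totals the median of this family was 0.0003.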
